A study of Mus musculus with 52 samples.

Results

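Ribosome footprints in the cytosol fraction of mouse embryonic fibroblasts were compared between cells exposed to thapsigargin (Tg) for 0.5 h and untreated cells. Genes entered the comparison when the deposited table gave a cytosol footprint value at both times, which held for 9686 of 22417 genes. All cells carried the genotype CReP+/-; GADD34+/+ (WT), so the untreated controls were also heterozygous for CReP; CReP and GADD34, the products of Ppp1r15b and Ppp1r15a, bring a phosphatase to phosphorylated eIF2 alpha and so restore initiation. The series holds 52 samples, with Tg times of 0.5, 1, 2 and 4 h and a separate treatment with dithiothreitol (DTT, a reducing agent) for 30 min. Each group has 2 samples in the labels but a single pooled value per gene in the table. No spread between replicates could therefore be set against any difference, no test was run, and the depth behind each value is unknown. Whether the 2 samples of a group came from separate cultures is not stated.

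Thapsigargin blocks the calcium pump that fills the endoplasmic reticulum (ER), and the loss of ER calcium disturbs protein folding there. Ribosomes that make secreted and membrane proteins are normally brought to the ER by the signal recognition particle once a signal sequence emerges, so their footprints are recovered with the ER. Unfolded proteins in the ER activate the kinase PERK, which phosphorylates eIF2 alpha; general initiation falls, while mRNAs with short upstream reading frames, such as that of the transcription factor Atf4, are translated more. Tail-anchored membrane proteins take another route, since their only membrane segment lies at the C-terminus and is inserted after translation has ended.

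The table also carries a column of TRUE or FALSE without a header. Genes with TRUE are called marked here, and 1468 of the 9686 compared genes were marked. They included 40 of 41 tail-anchored proteins, and 214 of the 217 genes in 11 lists of the secretory route. These lists hold ER chaperones, collagens, matrix glycoproteins, secreted proteases, growth factors, cytokines, surface and lysosomal proteins, membrane subunits of ER entry, cargo receptors and tetraspanins. The fibroblast label was checked against 10 fibroblast markers, of which 9 had an untreated ER value, with Vim at 1192 in both fractions and Col1a1 at 827 in the ER. Fap was blank. Of the markers of other cell types, the summed untreated ER scores were 4.00 for epithelial, 7.56 for leukocyte and 0.622 for endothelial genes, against 6033 for the fibroblast genes. Ptprc, Pecam1 and Krt8 were blank in both fractions at both times.

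Differences below are log2(score + 1) at 0.5 h minus untreated, unless a level is named, and a gene is called over 2-fold higher or lower beyond 1 in size. Footprints of secretory-pathway mRNAs were far higher in the cytosol after 0.5 h of Tg. Of the marked genes, 998 of 1468 (68.0%) were over 2-fold higher and 3 were lower, with a median difference of 1.86 (quartiles 0.63 and 3.05). Of the 8218 unmarked genes, 706 (8.59%) were higher and 39 lower, with a median of 0.16. The median over all 9686 genes was 0.23, with 17.6% of them over 2-fold higher and 0.434% lower. That median depends on scale: with both columns set to equal sums it was -0.02, and the split of over 2-fold genes moved from 1704 higher and 42 lower to 1308 higher and 190 lower. The difference between marked and unmarked medians was 1.70 in both scalings. List medians below are read against the 0.23 of all genes.

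**Figure D1:**
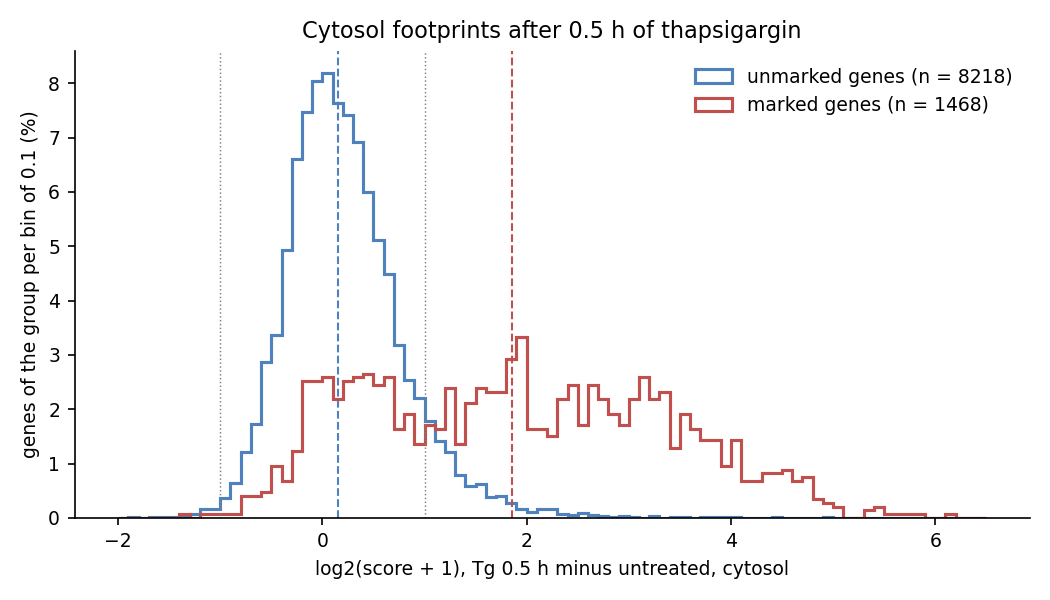
Share of genes (y, percent per bin of 0.1) by their cytosol footprint difference at 0.5 h of Tg (x, log2(score + 1), treated minus untreated), for 1468 marked genes (red) and 8218 unmarked genes (blue). Dashed lines give the medians, 1.86 and 0.16, and dotted lines mark a 2-fold change; marked genes spread broadly to the right while unmarked genes sit in 1 narrow peak.

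As a share of the summed cytosol score, marked genes held 4.47% in untreated cells and 9.26% after 0.5 h. Their summed cytosol score went from 28013 to 71450, while their summed ER score went from 107234 to 55396. On the scale as deposited the ER sum decreased by 51838 and the cytosol sum was 43438 higher, so that both fractions together held 135247 untreated and 126847 at 0.5 h. The constants that tie the ER columns to the cytosol columns are not stated, and whether footprints left the ER or ER membranes reached the cytosol fraction cannot be told apart from these values.

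The ER chaperones and folding enzymes had the highest median of all lists, 3.83, with 24 of 25 members over 2-fold higher. Hspa5 (BiP), the main Hsp70 chaperone of the ER lumen, had a cytosol score of 7.72 untreated and 457 at 0.5 h, a difference of 5.71. Calr, a calcium-binding lectin chaperone, went from 14.7 to 662 (5.40), and Hsp90b1, the ER member of the Hsp90 family, from 6.86 to 268 (5.10). The disulfide isomerases Pdia3 and P4hb differed by 4.79 and 4.50. All these proteins reside in the ER lumen and start with a signal sequence. The 1 member of the list that was not over 2-fold higher was Sdf2l1, a cofactor of BiP, at 5.17 and 8.51. In the ER fraction, where 4.66% of the same genes were over 2-fold higher and 14.6% lower, 0 of these 25 chaperones were higher and 19 were lower (median -1.20). Hspa5 was an exception in size, with ER scores of 711 and 707, whereas Calr went from 1522 to 808.

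Matrix and other secreted proteins followed. All 25 matrix glycoproteins and proteoglycans were over 2-fold higher (median 3.38), among them Thbs1, a matricellular glycoprotein, which went from 7.34 to 403. Fn1, fibronectin, went from 4.00 to 70.5 and Sparc, a collagen-binding matricellular protein, from 8.51 to 173. Dcn, a small proteoglycan that binds collagen fibrils, went from 5.83 to 143 in the cytosol and from 165 to 18.1 in the ER. Of the collagens and the enzymes that modify them, 25 of 26 were higher (median 2.58). Col1a1, a chain of type I collagen, went from 5.85 to 112 and Col5a2 from 5.70 to 187, and P4ha1, a subunit of the prolyl hydroxylase that stabilises the collagen helix, from 1.88 to 71.9. The exception was Leprel1, another prolyl hydroxylase, at scores of 0.417 and 0.766.

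Secreted proteases and inhibitors were higher in 15 of 15 cases (median 3.61), including Timp1, which inhibits matrix metalloproteinases (18.9 to 446), and the metalloproteinase Mmp3 (2.67 to 65.0). Growth factors and their binding proteins were higher in 11 of 12 cases (median 3.55). Ctgf and Cyr61, secreted matricellular proteins, went from 2.88 to 190 and from 5.01 to 265, and the macrophage growth factor Csf1 from 3.77 to 141. Tgfb1 stayed within 2-fold at 1.34 and 2.76. In the ER 1 of these 12 genes was over 2-fold higher and 4 were lower, beside 4.66% and 14.6% of all genes. The higher gene was Ctgf, with ER scores of 210 and 588. Of the cytokines, chemokines and acute-phase proteins, 13 of 15 were higher (median 3.11). The pentraxin Ptx3 went from 8.56 to 387 and the chemokines Ccl2 and Ccl7, which attract monocytes, from 33.6 to 484 and from 41.8 to 613. The other two were Ccl5, at 6.06 and 5.88, and Il1rn, the antagonist of the interleukin-1 receptor, at 122 and 61.5. Il1rn was the lowest of all 217 genes in the 11 secretory lists, at -0.98. Its ER scores were 33.4 and 8.76. The mouse gene is known to give a secreted and an intracellular form of the protein, which gene-level scores do not separate.

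Proteins of the cell surface and of lysosomes were higher without exception in these lists, with 30 of 30 surface receptors and adhesion proteins (median 3.39) and 23 of 23 lysosomal proteins (median 3.48). Cd44, the receptor for hyaluronan, went from 6.25 to 311, the transferrin receptor Tfrc from 2.30 to 91.4 and the tetraspanin Cd9 from 19.2 to 614. Among lysosomal proteins, Psap, the precursor of the saposins, went from 5.28 to 171, and the cathepsins Ctsb and Ctsl from 4.88 to 138 and from 5.85 to 148. The gap junction protein Gja1 (connexin 43), with 8.89 and 551, and Ptgs2 (cyclooxygenase-2, an ER-resident enzyme of prostaglandin synthesis), with 6.10 and 499, had the largest differences of all marked genes above the median level, 5.80 and 6.14. Ptgs2 was higher in the ER as well, at 373 and 706, so its cytosol and ER values moved the same way.

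**Figure D2:**
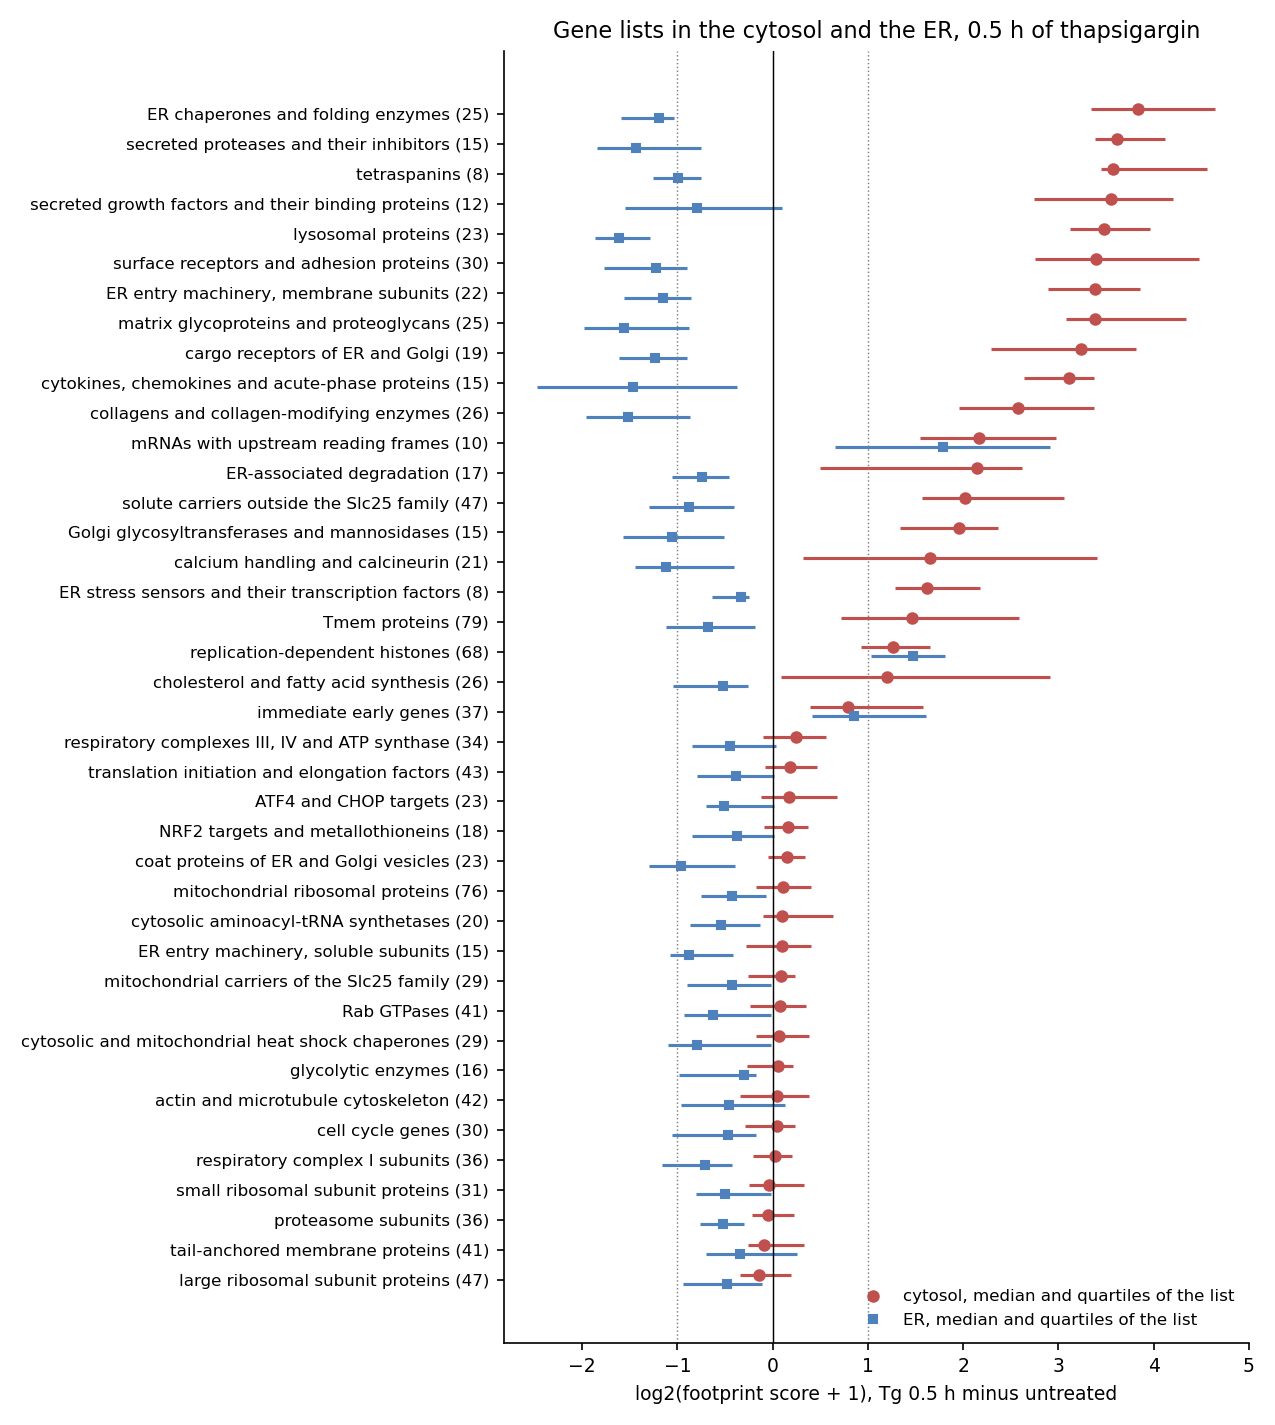
Median difference at 0.5 h of Tg (x, log2(footprint score + 1), treated minus untreated) for each gene list (y, number of genes in brackets) in the cytosol (red circles) and the ER (blue squares), with lines from the lower to the upper quartile over genes. Lists of secretory proteins lie between 2.58 and 3.83 in the cytosol and below 0 in the ER, while mRNAs with upstream reading frames, immediate early genes and histones lie above 0 in both.

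In the machinery of the secretory pathway, the list of membrane subunits differed from the list of soluble or peripheral ones. The first list leaves out the tail-anchored subunits. All 22 membrane subunits of the ER entry machinery were over 2-fold higher (median 3.39). Sec61a1, the channel subunit of the translocon, went from 1.97 to 43.1, and Stt3a and Rpn1, subunits of the oligosaccharyltransferase, from 2.03 to 81.8 and from 1.16 to 42.0. Of the 15 soluble or peripheral subunits, such as those of the signal recognition particle, 1 was higher (median 0.10). That gene was Srpr, a receptor subunit for the particle, at 10.2 and 32.6, while Srp54a, which binds the signal sequence, stood at 177 and 200. The same contrast held further along the route, with 19 of 19 cargo receptors of ER and Golgi higher (median 3.24; Lman1 0.735 to 35.4) against 1 of 23 coat proteins (median 0.15; Sec31a 36.9 and 37.2). The single coat gene was the GTPase Sar1b. The ER share of a gene is its ER score as a percentage of both fractions together, as deposited. Median untreated ER shares were 97.5% for the membrane subunits and 97.4% for the cargo receptors. They were 31.9% for the soluble or peripheral subunits and 40.3% for the coat proteins.

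Tail-anchored membrane proteins showed no such difference. Of 41 members, 0 were over 2-fold higher and 1 was lower, Stx6, at 36.4 and 17.6, and the median was -0.09. The range ran up to 0.88 for Hmox1, heme oxygenase 1 (40.1 and 74.5). Sec61b and Sec61g, small tail-anchored subunits of the translocon, had cytosol scores of 125 and 178 and of 505 and 780, whereas the multispanning Sec61a1 differed by 3.89. Among marked genes, 208 of 214 in the 11 secretory lists were over 2-fold higher, against 0 of 40 tail-anchored genes. The mitochondrial lists (ribosomal proteins, respiratory complexes and Slc25 carriers) had 9 of 175 genes higher, and 4 of 41 among their marked members (median 0.17). The Slc25 carriers are multispanning proteins of the mitochondrial inner membrane, and 2 of 29 were higher (median 0.09), whereas 40 of 47 solute carriers of other families were (median 2.02). The glucose transporter Slc2a1 went from 1.66 to 78.9. The median untreated ER share was 33.4% for the tail-anchored list and 41.1% for the Slc25 carriers. It was 94.9% for the other solute carriers and between 94.7% and 98.7% for the 11 secretory lists. Genes that start mostly in the cytosol have less ER score that could move, so the 2-fold mark is not equally within reach of these lists. Whether the route of insertion matters was not tested.

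The footprints at 4 h of Tg, which the choice of genes did not use, gave a related measure of a gene's share at the ER. Among marked genes, 3.88% were over 2-fold higher in the cytosol at 0.5 h where the ER held under 40% of the 4 h score, and 97.8% where it held over 90%. The medians of the 5 classes were 0.07, 0.30, 1.30, 2.04 and 3.12. Unmarked genes showed the same order, with medians of 0.05, 0.17, 0.61, 1.80 and 2.38, although only 24 unmarked genes lay above 90%. The ER share at 4 h was over 50% for 98.6% of the marked genes called higher, against 49.6% of the marked genes not called. Both measures rest on pooled columns of the same experiment, and no test was run. They are not taken as independent. The median ER share was 98.7% untreated and 97.7% at 4 h for the ER chaperones. It was 94.7% and 82.9% for the cytokines, and 33.4% and 40.1% for the tail-anchored list. In these lists a high or low untreated share thus stayed high or low at 4 h. The untreated share holds the same untreated cytosol score as the difference, and genes with a low share have less ER score that could move. Part of the order is therefore built in.

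**Figure D3:**
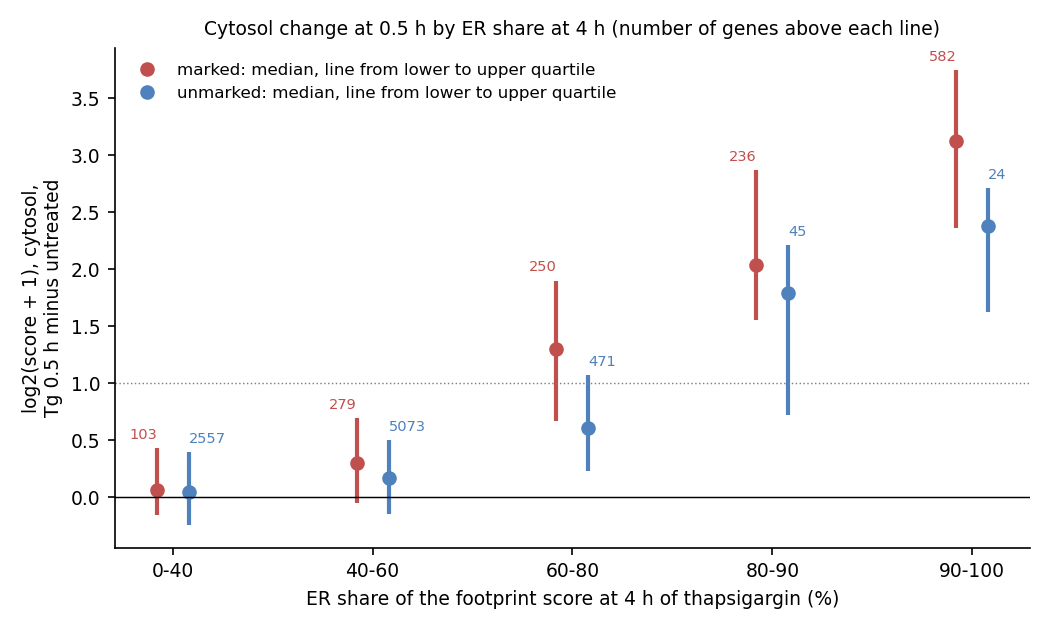
Cytosol footprint difference at 0.5 h of Tg (y, log2(score + 1), treated minus untreated) by class of ER share of the footprint score at 4 h (x, percent), for marked (red) and unmarked (blue) genes. Points are medians, lines run from the lower to the upper quartile over genes, and the number of genes stands above each line; the medians climb from 0.07 to 3.12 in marked and from 0.05 to 2.38 in unmarked genes.

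Other ER functions were mixed in the same way. Proteins of ER-associated degradation were higher in 11 of 17 cases (median 2.14), led by the membrane proteins Derl1 (2.15 to 30.5) and Vimp (2.69 to 32.3). Cholesterol and fatty acid synthesis had 13 of 26 higher (median 1.20), including the desaturase Scd2, which went from 8.60 to 137. Of 21 genes of calcium handling, 13 were higher (median 1.65). They included Atp2a2, the pump that Tg inhibits, at 1.02 and 23.4. Golgi glycosyltransferases and mannosidases were higher in 13 of 15 cases (median 1.96; Man2a1 0.493 to 13.1). Among genes above the median level alone, the medians for degradation, cholesterol synthesis and calcium handling were 0.19, 0.07 and 0.32, under the 2-fold mark. Sensors of ER stress and their transcription factors were higher in 7 of 8 cases (median 1.62). Atf6, itself a membrane protein of the ER, differed by 3.23.

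Most mRNAs with upstream reading frames were higher in both fractions. In the cytosol 8 of 10 were over 2-fold higher and 0 lower (median 2.17), and in the ER 7 of 10 were higher and 1, Eprs, lower (median 1.79). Ppp1r15a (GADD34) had cytosol scores of 2.34 untreated and 53.0 at 0.5 h and ER scores of 1.82 and 34.3. Ddit3, which encodes the transcription factor CHOP, went from 4.82 to 53.7, Atf4 from 87.1 to 658 and Atf5 from 13.9 to 68.0. Eprs and Ibtk differed by 0.90 and 0.60 in the cytosol, and Eprs had ER scores of 81.9 and 29.7. Ppp1r15b (CReP) went from 0.962 to 7.52 in the cytosol, with ER scores of 8.84 and 7.74. Only 1 of the 10, Slc35a4, was marked. What raised these footprints was not tested.

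At 0.5 h the targets of ATF4 and CHOP had a median of 0.17 in the cytosol, near the 0.23 of all genes, with 4 of 23 over 2-fold higher. Of these, Slc7a1, Slc7a5 and Slc3a2 encode membrane proteins of amino acid transport and were marked, and the fourth was the mitochondrial enzyme Pck2 (7.98 to 23.2). Asns, asparagine synthetase, stood at 113 and 101, and Trib3, a pseudokinase induced by CHOP, at 12.9 and 19.1. By 4 h, when 5.17% of all genes were over 2-fold higher in the cytosol and 2.27% lower, 9 of 23 were higher and the median was 0.76, with Trib3 at 72.0 and Chac1, which degrades glutathione, at 58.0 against 10.9 untreated. Xbp1, whose mRNA is spliced by IRE1, was at 11.5 untreated, 24.5 at 0.5 h, 52.7 at 1 h and 96.9 at 4 h. Its difference at 0.5 h was 1.04 as deposited and 0.75 with equal column sums, so that value crossed the 2-fold mark on 1 scale only.

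**Figure D4:**
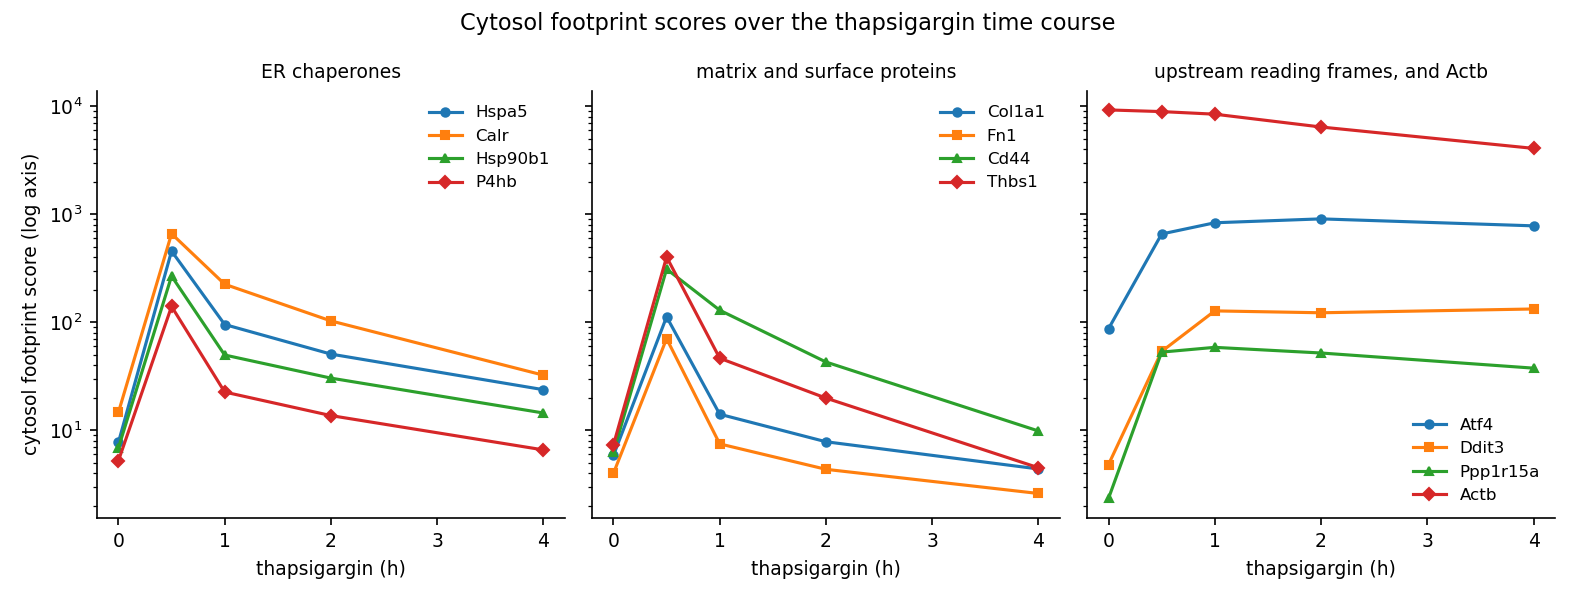
Cytosol footprint scores (y, log axis) at 0, 0.5, 1, 2 and 4 h of Tg (x) for ER chaperones, matrix and surface proteins, and mRNAs with upstream reading frames together with Actb; each point is 1 pooled value. Hspa5 peaks at 457 and Fn1 at 70.5 at 0.5 h and both are lower at every later time, whereas Atf4 is at 658 at 0.5 h and 782 at 4 h and Ddit3 reaches 128 at 1 h.

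Immediate early genes, the transcription factors and regulators that cells transcribe first after a stimulus, were higher in 16 of 37 cases in the cytosol (median 0.79) and in 17 of 37 in the ER (median 0.85). Fos, a subunit of the factor AP-1, went from 0.770 to 7.47 in the cytosol and from 0.657 to 5.29 in the ER. The phosphatase Dusp1 went from 9.20 to 31.9, the antiproliferative regulator Btg2 from 3.48 to 13.7 and Gadd45g from 45.4 to 215. Egr1, a zinc finger factor of the same class, stood at 20.1 and 26.7. The median was 1.18 at 1 h and -0.01 at 4 h. Ier3, whose protein has a membrane segment, had the highest value of the list, 10.1 and 169, with ER scores of 113 and 246.

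The promoters of the immediate early genes were searched for the half-site of the cyclic AMP response element. The half-site reads TGACG on the plus strand or CGTCA, its reverse complement. In the 250 bases before the start, 17.8% of 32851 RefSeq promoters (GRCm38.p6) held it. Of the immediate early genes of the comparison, 30 matched by symbol, and 15 of these 30 held it. The former share is counted per promoter and the latter per gene. A gene can have several promoters, so these shares are not like for like and no excess is read from them. The half-site was found in 6 of the 14 matched genes over 2-fold higher and in 9 of the 16 others. A match describes these letters only, and whether transcription raised the footprints was not tested. The promoters of Fos (chr12:85473640-85473889, plus strand), Btg2 (chr1:134079156-134079405, minus strand) and Dusp1 (chr17:26508473-26508722, minus strand) are shown 5′ to 3′ as examples that hold it, with the half-sites in capitals and overlapping matches marked once.
Fos: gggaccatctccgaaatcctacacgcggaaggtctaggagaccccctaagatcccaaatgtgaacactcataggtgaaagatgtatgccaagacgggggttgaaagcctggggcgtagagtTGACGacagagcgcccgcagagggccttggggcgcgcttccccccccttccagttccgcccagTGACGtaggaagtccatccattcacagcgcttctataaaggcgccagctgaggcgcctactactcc
Btg2: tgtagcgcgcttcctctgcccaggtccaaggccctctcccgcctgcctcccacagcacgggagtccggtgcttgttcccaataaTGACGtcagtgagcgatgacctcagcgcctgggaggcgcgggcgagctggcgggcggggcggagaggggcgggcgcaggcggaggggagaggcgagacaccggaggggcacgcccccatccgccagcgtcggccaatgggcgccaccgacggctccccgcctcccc
Dusp1: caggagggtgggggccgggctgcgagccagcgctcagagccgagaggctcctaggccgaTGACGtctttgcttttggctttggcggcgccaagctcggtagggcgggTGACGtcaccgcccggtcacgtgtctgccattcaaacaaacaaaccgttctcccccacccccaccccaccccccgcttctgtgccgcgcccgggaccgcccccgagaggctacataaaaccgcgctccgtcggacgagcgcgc

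Several of the other unmarked genes with large differences had high untreated ER scores. Spp1, which encodes the secreted protein osteopontin, went from 20.8 to 462 in the cytosol and from 1446 to 361 in the ER, the pattern of the secretory lists, although the table does not mark it. Vcl and Flna, which link actin to membranes, went from 11.7 to 147 and from 24.2 to 121. Their untreated ER scores were 359 and 119. Atad1, a membrane-anchored ATPase of the mitochondrial outer membrane, went from 2.96 to 53.1 with an untreated ER score of 89.3. Rcan1, an inhibitor of calcineurin that calcium signals induce, went from 19.8 to 219 and on to 766 at 1 h and 1447 at 2 h. After 30 min of DTT its difference was 0.62, against 3.40 at 0.5 h of Tg, and that contrast was not tested. The unmarked genes called higher as a group had an ER median of 0.73, with 241 of 703 higher there, whereas the marked ones had an ER median of -0.96, with 16 of 997 higher and 480 lower.

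Replication-dependent histones were higher in 49 of 68 cases in the cytosol (median 1.26) and in 52 of 68 in the ER (median 1.48), with Hist1h2bh at 249 and 1572. Near-identical copies make each of these genes uncertain, and with equal column sums the cytosol median was 0.96. LOC100861722, with 2.91 and 119, is an unnamed locus and uncertain as well.

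The main housekeeping groups lay near or below the median of all genes. Medians were -0.15 for 47 large and -0.04 for 31 small ribosomal subunit proteins, -0.05 for 36 proteasome subunits, 0.05 for 16 glycolytic enzymes, 0.05 for 42 genes of the cytoskeleton and 0.07 for 29 heat shock chaperones of cytosol and mitochondria. Translation factors stood at 0.18, aminoacyl-tRNA synthetases at 0.10, NRF2 targets at 0.16, Rab GTPases at 0.08 and cell cycle genes at 0.05. Their numbers over 2-fold higher were 3 of 43, 2 of 20, 0 of 18, 1 of 41 and 1 of 30, beside 17.6% of all genes. These lists are almost wholly unmarked, and of unmarked genes 8.59% were higher. Such small numbers are not set apart from that share. Actb, beta-actin, had scores of 9274 and 8950 and Eef1a1, the main elongation factor, 8180 and 10019. Rpl41 was the 1 ribosomal protein over 2-fold higher, at 5266 and 11789, and it fell under the mark, at 0.86, with equal column sums.

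Only 42 genes were over 2-fold lower, and the 10 lowest above the median level were all unmarked. Dclk1, a microtubule-associated kinase, went from 32.7 to 9.51 (-1.68). Bcl7c, a subunit of chromatin-remodelling complexes, went from 27.6 to 9.90, Copz2, a coat protein subunit, from 20.9 to 8.52, and Nek7, a kinase, from 49.0 to 21.9. These 4 genes were also lower in the ER at 0.5 h, with Dclk1 at 12.9 and 3.96 there. Rasl2-9, whose sequence closely resembles that of Ran and which is therefore uncertain, went from 442 to 155. Psmb8, an inducible proteasome subunit, went from 10.3 to 3.90 and back to 21.6 at 1 h, and Ccna2, cyclin A2, from 108 to 52.0. The 3 marked genes that were lower were Stx6, Bri3 (12.4 to 4.43) and the unnamed locus LOC101055631 (6.01 to 2.25).

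Blank cells add genes that the comparison could not include. At 0.5 h 615 genes had a cytosol value that was blank in untreated cells, and 527 of them (85.7%) were marked. In the opposite case were 699 genes, of which 92 (13.2%) were marked. The base shares differ: 55.6% of the 11417 genes blank at both times were marked, and 15.2% of the 9686 genes with both values. The 85.7% is read beside the former and the 13.2% beside the latter. The 615 genes reached a score of 54.6 for the tetraspanin Cd151, with an untreated ER score of 103. They included the receptors Egfr, Insr and Met, the stress sensors Eif2ak3 (PERK) and Ern1 (IRE1), and 45 solute carriers outside the Slc25 family. Of the 615 genes, 608 had an untreated ER value. The meaning of a blank is not given, so no fold is given. With blanks taken as 0, the counts were 2265 higher and 409 lower of 11000 genes.

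Levels of mRNA in the cytosol were given at both times for 3202 of the compared genes, of which 10.7% were over 2-fold higher and 0.219% lower. Of the marked genes with both measures, 117 of 251 had higher mRNA (median 0.91) and 165 of 251 higher footprints (median 1.86). Among the marked genes with higher footprints, 112 of 165 (67.9%) also had higher cytosol mRNA, against 39 of 203 (19.2%) of the unmarked. For 8 ER chaperones both were higher in all 8, with medians of 4.75 for footprints and 3.48 for mRNA. In the cytosol, Hspa5 mRNA went from 19.0 to 216 and Hsp90b1 mRNA from 20.9 to 443. In the ER fraction, Hspa5 mRNA went from 388 to 328 and Hsp90b1 mRNA from 1130 to 522. Higher cytosol mRNA is therefore not read as more mRNA in the whole cell. Gja1 and Cd44 mRNA in the cytosol differed by 1.97 and 1.90, less than their footprints. Of the 6 measured mRNAs with upstream reading frames, 4 had higher footprints and 1 had higher mRNA. None of those 4 had higher mRNA, beside the 19.2% of unmarked genes, and 4 genes are too few to be set apart from that share. Ddit3 mRNA was at 59.0 and 85.1, Atf4 mRNA at 47.5 and 61.1 and Ppp1r15a mRNA at 7.68 and 12.1.

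**Figure D5:**
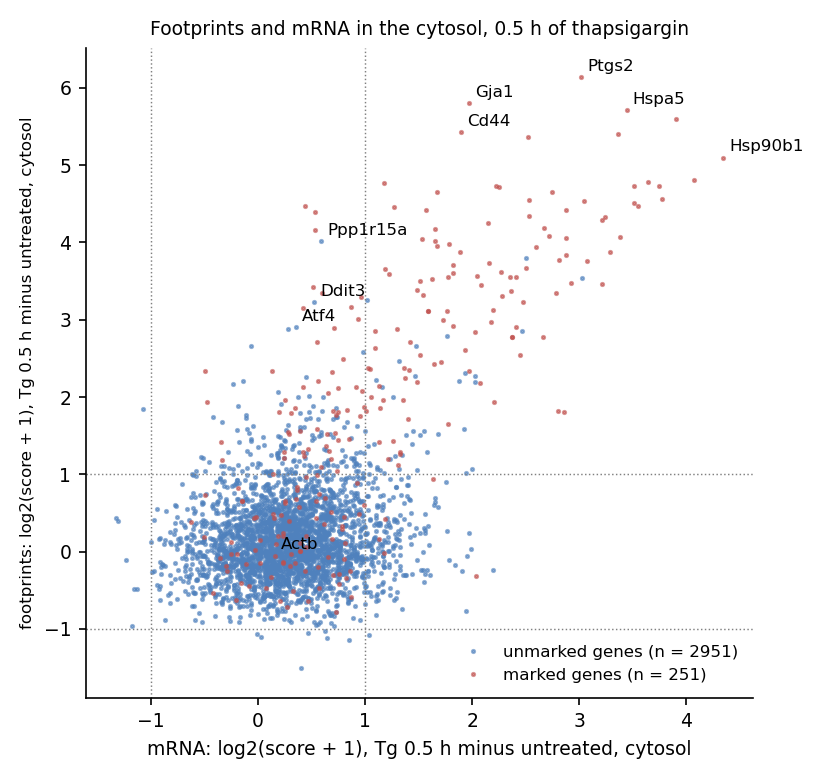
Cytosol footprint difference (y) against cytosol mRNA difference (x) at 0.5 h of Tg, both log2(score + 1), treated minus untreated, for 251 marked (red) and 2951 unmarked (blue) genes; dotted lines mark 2-fold changes. Hspa5 and Hsp90b1 lie at the upper right with both values high, and Atf4, Ddit3 and Ppp1r15a lie high on the footprint axis with mRNA differences under 1.

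Ribosome density, the deposited ratio of footprints to mRNA, differed on the log2 scale without a pseudocount by a median of 1.04 in 241 marked genes and of -0.13 in 2926 unmarked genes. Over all 3167 genes, 9.66% were over 2-fold higher and 10.1% lower. Of 6 measured mRNAs with upstream reading frames, 4 had over 2-fold higher density and 1 had lower. Atf4 density in the cytosol went from 1.94 to 10.7 and Ppp1r15a density from 0.306 to 4.62. At 0.5 h the deposited density was over 1.5 or under 0.5 times the quotient of the 2 score columns for 27.3% of marked genes, against 1.95% of unmarked genes and 1.34% of marked genes in untreated cells. With that quotient in place of the deposited ratio, the medians were 1.18 and -0.15.

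At later times the cytosol footprints of secretory genes were closer to their untreated level. The share of genes over 2-fold higher in the cytosol was 14.6% at 1 h, 11.3% at 2 h and 5.17% at 4 h, and 2.98%, 1.68% and 2.27% were lower. The later times share the untreated column with 0.5 h, and their values are given side by side. Over all genes the medians were 0.23 at 0.5 h, 0.12 at 1 h, 0.15 at 2 h and 0.02 at 4 h. The 998 marked genes called at 0.5 h, chosen for that value, had medians of 2.62 at 0.5 h, 1.57 at 1 h, 1.02 at 2 h and 0.41 at 4 h. For the matrix glycoproteins the medians were 3.38, 1.31, 0.77 and -0.09, and for the collagens 2.58, 0.93, 0.37 and -0.07. The ER chaperones were at 3.83, 2.42, 1.83 and 1.11, and the cytokines at 3.11, 2.95, 2.49 and 1.59. The mRNAs with upstream reading frames stayed at 2.17, 2.11, 1.82 and 1.79. Hspa5 had cytosol scores of 7.72, 457, 95.4, 50.8 and 23.8 over the 5 times, while its ER score was 711, 707, 1057, 1735 and 3793. Ccl7 peaked later in the cytosol, at 613 after 0.5 h, 1100 after 1 h, 583 after 2 h and 222 after 4 h. Ccl2 was also highest at 1 h, with cytosol scores of 484, 547, 422 and 140 at these times.

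After 30 min of DTT, 29.7% of the genes were over 2-fold higher in the cytosol and 1.48% lower. The median over all genes was 0.46, against 0.23 after 0.5 h of Tg, and the list medians are read beside these. The DTT table holds the same untreated cytosol values times 1.06, so both comparisons rest on the same untreated data. Medians were 3.94 for ER chaperones, 4.01 for matrix glycoproteins, 3.15 for collagens and 0.07 for tail-anchored proteins, against 3.83, 3.38, 2.58 and -0.09 after 0.5 h of Tg. Of the genes named above, Dcn had 6.71 with DTT and 4.40 with Tg, Ptgs2 4.27 and 6.14, and Atf4 3.48 and 2.90. Whether the agents differ was not tested.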

How the data were processed

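Cytosol and ER fractions were profiled for ribosome footprints and for mRNA. Per the labels' protocols, ribosomes were pelleted after a nuclease digest and the footprints purified from a gel; mRNA was freed of ribosomal RNA and fragmented. Bowtie is named, with no version, in the submitters' processing notes; a genome build was not given in the sources used here. Deposited footprint and mRNA values are a score: the authors give a pooled value for each group, on a scale the headers do not describe. The deposited ribosome density is a ratio of the footprint and mRNA values. The deposited column of TRUE or FALSE has unit other. Counts were not used here, so the depth is unknown and no counting interval is given.

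From these values log2(score + 1) differences were computed with Python 3.11.15, pandas 2.3.3 and numpy 2.4.6, and figures drawn with matplotlib 3.10.9. With a single pooled value per group no test of any difference was possible; the calculation of counts and medians was checked on simulated data with known differences, which says nothing of the error of the real values. The genes, the 44 lists, the rule for named genes and the alternatives were chosen with earlier results of these data known. Named genes were the 10 highest marked, 10 highest unmarked and 10 lowest above the median level, up to 4 over 2-fold from each list or its 2 most abundant members where none was, and 15 fixed genes; any other gene was named after its values were seen. Some genes that meet the rule are not reported here. A planned look at protein sequence was not run. Alternatives were a pseudocount of 0.1, genes above the median level, blanks as 0, genes complete in every footprint column, equal column sums and centring on unmarked genes; the quotient of the score columns was chosen after seeing the data.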

Additional observations from a re-analysis of the deposited data

Results flagged for a closer look

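The median difference at 0.5 h of Tg went opposite ways in the cytosol and the ER, beyond 1 in size in each, for 11 lists, and this contrast was not tested, since each fraction has 1 pooled value per gene and time. The cytosol difference minus the ER difference was taken gene by gene, and the median of these values over a list was 5.34 for secreted proteases and their inhibitors, 5.13 for matrix glycoproteins, 5.09 for ER chaperones and 5.07 for lysosomal proteins. It was 4.67 for surface receptors, 4.63 for membrane subunits of the ER entry machinery, 4.51 for cytokines and chemokines, 4.46 for collagens and 4.31 for cargo receptors. Golgi glycosyltransferases stood at 3.17 and calcium handling at 2.08. The ER and cytosol columns carry constants of their own, so these values have no absolute zero.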

How the results depend on the processing

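No paired analysis was possible because each group is given as 1 pooled value, and leaving out a replicate could not be run for the same reason. The 1704 higher genes of 9686 became 515 of the 4843 genes above the median level. Otherwise the count lay between 1308 of 9686, with equal column sums, and 2265 of 11000, with blanks as 0. The 42 lower genes of 9686 became 85 with a pseudocount of 0.1, 190 with equal column sums and 102 with centring. They became 22 of 4843 above the median level and 409 of 11000 with blanks as 0. Higher genes made up 97.6% of the over 2-fold genes as deposited, 84.7% with blanks as 0 and 87.3% with equal column sums. The marked minus unmarked median ranged from 1.03 to 2.37. Of 41 list medians, those over the 2-fold mark as deposited that fell under it were ER-associated degradation (0.19), cholesterol synthesis (0.0682), calcium handling (0.32) and fibroblast markers (0.82) above the median level, and cholesterol synthesis (0.93), fibroblast markers (0.94) and histones (0.96) with equal column sums. Of the 145 named genes, 14 fell under the mark with equal column sums and 9 with centring. No called value changed sign in the alternatives run. The cause of these changes was not tested. The unknown depth limits most the genes with low untreated cytosol scores, where the pseudocount understates the change.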

Other observations

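In 4 equal classes of the mean level over both columns, from low to high, marked genes had median differences of 1.69, 2.79, 1.94 and 0.55, and unmarked genes 0.31, 0.20, 0.06 and 0.06. Among 79 Tmem genes, a naming class of membrane proteins, 51 were over 2-fold higher, with Tmem50a at 2.54 and 87.6. Of 8 tetraspanins, 7 were higher, with Cd81 at 4.98 and 143, and the exception was Tspan5, at 2.13 and 3.51.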
